A study of Solanum lycopersicum with 21 samples.

Results

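Among the sites that MACROCALYX (MC) complexes bound in tomato DNA in vitro, 496 regions carried a peak of MC with at least 2 of 3 partner proteins and no peak of FRUITFULL2 (FUL2) with any partner. They were 1.85% of the 26850 regions obtained by joining all overlapping peaks of the 6 deposited lists, and 6.47% of the 7664 regions held by MC lists alone. The regions were chosen by the peak calls themselves, so that their partner combinations and strengths are given as a description, without a test.

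The data came from DNA affinity purification sequencing (DAP-seq), in which proteins made in vitro are incubated with a genomic DNA library and the DNA they retain is sequenced. The DNA was extracted from young leaves of wild-type tomato, cultivar Moneyberg, and the library was not amplified before binding, so that DNA modifications of the leaf were still on it. FUL2 or MC, each with a 3×FLAG tag, was combined with J, J2 or TM3 in a wheat germ expression system, each complex is named by its 2 proteins, as in MC-TM3, and the input control was a reaction without plasmid. Every complex and the input were labelled as 3 libraries, but 1 peak list per complex was used here, called on merged alignments, so that no value carries a replicate error. All 6 complexes met the same DNA of 1 genotype and tissue, free of the other proteins of a nucleus.

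MADS-domain transcription factors bind DNA as dimers and tetramers at CArG-boxes, short sequences with an A/T-rich core. MC is the tomato ortholog of APETALA1 and FUL2 a FRUITFULL-like protein of the same clade. Both act in the inflorescence and flower, in complexes with other MADS-domain proteins, among them J (JOINTLESS), which maintains inflorescence meristem identity, J2 (JOINTLESS2), a SEPALLATA-clade protein, and TM3, a relative of SUPPRESSOR OF OVEREXPRESSION OF CONSTANS1 that promotes flowering.

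The lists held from 4677 (MC-J2) to 11457 (MC-TM3) peaks. For each peak they give the fold enrichment of the treatment over the local background, and a −log10 q, its significance after correction for multiple testing. Because the lists differ in depth and length, strength is given here as a percentile within a list, the percentage of the list's other peaks that had a lower value. It places a peak within its own list only, so that the same percentile is not the same rank in lists of unlike length. Intervals beside shares and medians are 95% intervals that cover counting over regions only. The regions were compared with 2 other classes, the 7168 regions of 1 MC list alone and the 5047 regions that held peaks of 2 or 3 MC lists and also of FUL2.

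TM3 was the partner most of the regions had in common. A MC-TM3 peak lay in 466 of the 496 regions (94.0%), where 42.1% of all regions had one. A MC-J peak lay in 295 (59.5%), against 40.3% of all regions, and a MC-J2 peak in 251 (50.6%), against 17.4% of all regions. The rule, which required at least 2 MC lists, raised all of these shares, and nothing is read from their size against those over all regions. Nor was the lead of MC-TM3 particular to the MC-only regions. Of the 5047 regions with FUL2 and 2 or 3 MC lists, 4840 had a MC-TM3 peak, 3869 a MC-J peak and 3520 a MC-J2 peak.

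The combination of MC-J with MC-TM3 made up 245 of the regions, or 49.4% (45.0 to 53.8), a share that was 24.9% with only the 4000 strongest peaks of each list and 28.7% without the FUL2-J2 list. The cut at 4000 peaks removed most of the 10818 MC-J and 11457 MC-TM3 peaks but few of the 4677 MC-J2 peaks. With a −log10 q of at least 10 the share was 46.3% (44.2% if applied to the MC lists alone), and with a fold of at least 3 it was 47.2%. MC-J2 with MC-TM3 made up 201, or 40.5% (36.3 to 44.9). MC-J with MC-J2, the only pair without TM3, was found in 30 regions (6.05%, 4.27 to 8.50), and all 3 MC lists met in 20 (4.03%, 2.63 to 6.15). Where FUL2 was also present the make-up was another one, since all 3 MC lists met in 2135 of 5047 regions (42.3%), MC-J with MC-TM3 in 1527 (30.3%), MC-J2 with MC-TM3 in 1178 (23.3%) and MC-J with MC-J2 in 207 (4.10%).

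Turned round, a region with MC-J and MC-TM3 but without MC-J2 lacked FUL2 in 13.8% of cases (12.3 to 15.5, n = 1772), and one with MC-J2 and MC-TM3 but without MC-J in 14.6% (12.8 to 16.5, n = 1379). The share was 12.7% (9.01 to 17.5, n = 237) for MC-J with MC-J2. These 3 intervals overlapped, and a region with all 3 MC lists lacked FUL2 in 0.928% of cases (0.602 to 1.43, n = 2155), outside all of them. Over all combinations, 8.95% (8.22 to 9.73) of the 5543 regions with 2 or 3 MC lists had no FUL2 peak.

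A second MC partner was rarer at MC-only sites than at sites shared with FUL2, in each of the lists. Of the 4127 MC-only regions of the MC-J list, 7.15% (6.40 to 7.97) also held another MC list, against 57.8% of its regions with FUL2. For MC-TM3 it was 13.6% (12.5 to 14.8) of 3418, against 61.3%. For MC-J2, the shortest list, it was 39.5% (35.8 to 43.4) of 635, against 87.1%.

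The FUL2 list most often present beside the same MC combinations differed between them. Among the regions with FUL2, the pair of MC-J and MC-TM3 was met by FUL2-J in 89.6%, by FUL2-TM3 in 53.8% and by FUL2-J2 in 382 of the 1527 regions. The pair of MC-J2 and MC-TM3 was met by FUL2-J2 in 85.7%, by FUL2-J in 59.9% and by FUL2-TM3 in 28.9%. The pair of MC-J and MC-J2 was met by FUL2-J in 87.4%, by FUL2-J2 in 73.4% and by FUL2-TM3 in 17.4%. In these pairs the commonest FUL2 list had one of the pair's own partners, and it was J wherever J was in the pair. FUL2-TM3 was the commonest in none of them. Beside MC-J2 with MC-TM3 it was rarer than FUL2-J, whose partner is not in that pair. These shares were not set against how often each FUL2 list occurs in general, so that no matching of partners is read from them.

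A single FUL2 list kept many regions out. Peaks of FUL2-J alone separated 782 of the 5047 regions (15.5%) from the MC-only class, those of FUL2-J2 alone 434 (8.60%) and those of FUL2-TM3 alone 155 (3.07%). These lone FUL2 peaks were of middling rank, with median percentiles of 51.3, 42.8 and 54.3 in their lists. Without the FUL2-J list the MC-only class with 2 or 3 partners would have numbered 1276, without FUL2-J2 930 and without FUL2-TM3 651.

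The regions lay in the weaker part of the MC lists. Their MC-J peaks had a median percentile of 34.7 (29.5 to 40.5, n = 295) by −log10 q, close to the 37.1 of MC-J peaks in regions of 1 MC list, and below the 60.0 of regions with FUL2 and 2 or 3 MC lists. Their MC-J2 peaks had a median of 26.9 (23.7 to 31.2, n = 251), the same value as in regions of 1 MC list, with 58.4 where FUL2 and 2 or 3 MC lists met. Their MC-TM3 peaks were placed higher, at 40.6 (38.6 to 44.7, n = 466), against 37.1 in regions of 1 MC list and 68.7 where FUL2 and 2 or 3 MC lists met. Thus the 3 medians were within 4 percentile points of those of regions with a single MC list, and 25 or more points below those of regions that had 2 or 3 MC lists and FUL2. Regions with FUL2 and 1 MC list had medians of 59.2 in MC-J, 40.8 in MC-J2 and 37.9 in MC-TM3, so that for MC-TM3 those peaks ranked no higher than the MC-only regions described here.

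**Figure D1:**
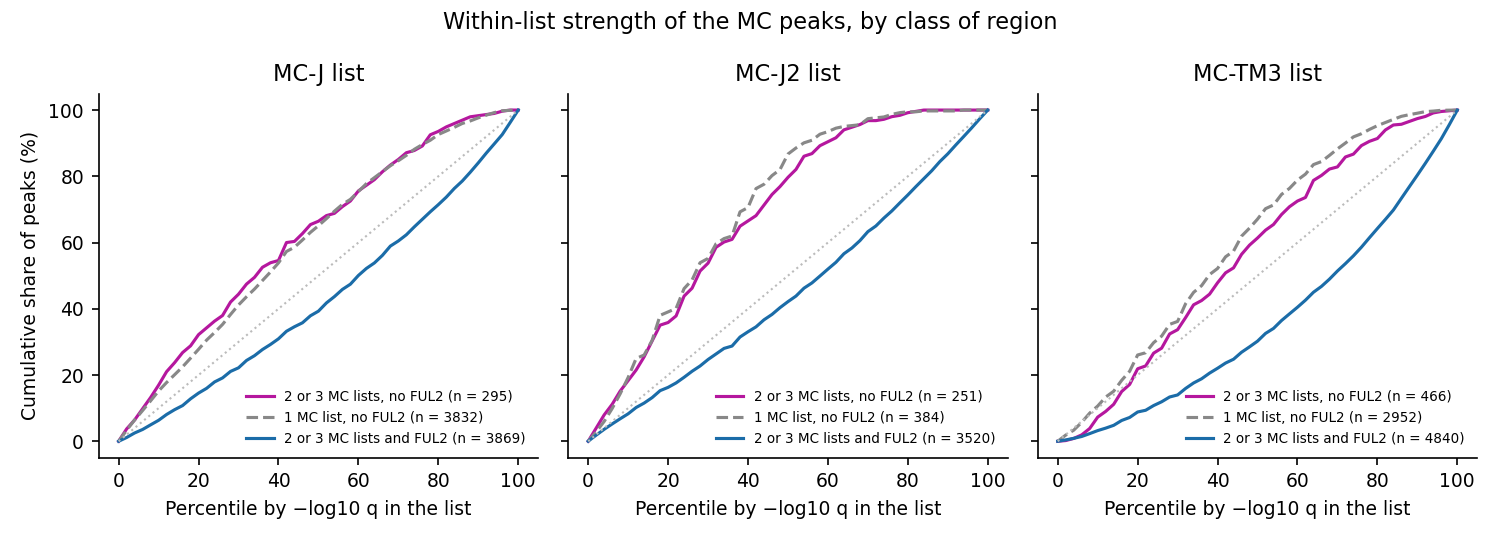
Cumulative share (%) of the MC peaks of each class of region against their percentile by −log10 q within the list, 1 panel per MC list; the dotted diagonal is the whole list. In every panel the regions with 2 or 3 MC lists and no FUL2 run beside the regions of 1 MC list and left of those with 2 or 3 MC lists and FUL2, with medians of 34.7, 26.9 and 40.6 in MC-J, MC-J2 and MC-TM3.

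By fold enrichment in place of −log10 q the medians were 40.2 in MC-J, 32.5 in MC-J2 and 42.3 in MC-TM3. Regions of 1 MC list had 36.9, 34.2 and 42.3 by fold, so that the order against them depended on the measure. Where FUL2 and 2 or 3 MC lists met, the medians by fold were 62.4, 56.0 and 67.5. In the MC-only regions with 2 or 3 partners the middle peak was enriched 3.73-fold in MC-J, 4.03-fold in MC-J2 and 4.0-fold in MC-TM3. Their median −log10 q was 13.2, 12.8 and 14.8. The number of reads under their summits, solved from the fold and the p-value, had a median of 91 in MC-J (252 peaks solved), 98 in MC-J2 (247) and 71 in MC-TM3 (440). The fewest reads under any solved summit of these regions were 60 in MC-J, 67 in MC-J2 and 49 in MC-TM3.

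Few of the regions reached the top of a list. In the strongest 25% of their lists were 32 of 295 MC-J peaks, 7 of 251 MC-J2 peaks and 59 of 466 MC-TM3 peaks, while the weakest 25% held 109, 114 and 129. A peak in the strongest 25% of at least 1 list was found in 88 regions (17.7%, 14.6 to 21.3), and in 10 regions every peak was. In 237 regions (47.8%, 43.4 to 52.2) every peak lay below the middle of its list, and in 78 (15.7%) every peak lay in the weakest 25%. A fold under 2.5 in every list was seen in 6 regions.

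The share of regions without FUL2 fell with the strength of their MC peaks. Of the regions of 2 or 3 MC lists whose MC peaks had a mean percentile under 25, 22.2% (19.1 to 25.7, n = 604) had no FUL2 peak. It was 13.7% (12.1 to 15.5) from 25 to 50, 5.80% (4.87 to 6.90) from 50 to 75 and 1.57% (1.02 to 2.42) above 75, where 20 of 1270 regions had none. The same order held in each pair, for example 25.2%, 17.5%, 8.71% and 5.49% for MC-J with MC-TM3 and 23.8%, 19.0%, 10.6% and 3.35% for MC-J2 with MC-TM3. With all 3 MC lists the shares were 5.80%, 2.71%, 0.485% and 0 of 819 regions, which allows up to 0.467%. In each bin these shares were below those of both pairs with TM3, with counting intervals that did not overlap. A bin averages percentiles of lists of unlike length, so that triple regions and pairs in the same bin are not matched in strength. Regions are not replicates, and the intervals are not a test.

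**Figure D2:**
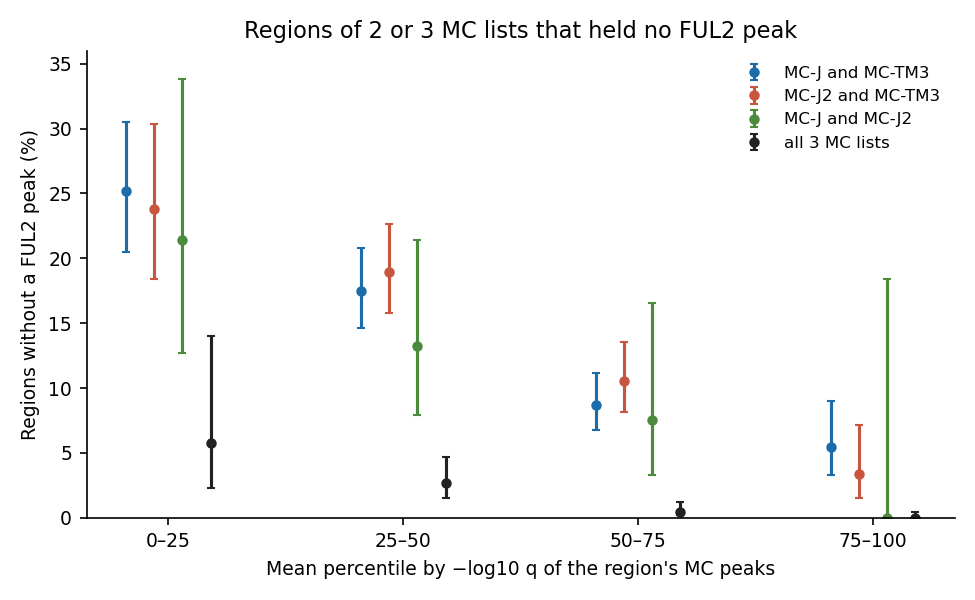
Share (%) of regions with 2 or 3 MC lists that had no FUL2 peak, by the mean percentile of their MC peaks and by combination of MC lists; bars are 95% Wilson intervals over regions. Over all combinations the share goes from 22.2% in the weakest bin to 1.57% in the strongest, and regions of all 3 MC lists (black) lie lowest in the bins up to 75.

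The lists give no FUL2 value where no peak was called, so the FUL2 signal at these regions was not measured here. The source study viewed coverage in a genome browser and reported that seemingly specific targets lay near the threshold of both proteins. From this and a plot of the coverage of both proteins' targets, it could not identify DAP-seq sites specific to MC or to FUL2. Neither view was limited to the regions described here. Outside the DAP-seq peaks the study did report a difference, at a fragment downstream of the gene SELF PRUNING. In gel shifts and in quantitative PCR after binding to an amplified library, MC-J bound this fragment and FUL2-J did not. At the commonest background, the lowest fold called was 2.67 in FUL2-J, 2.90 in FUL2-J2 and 2.79 in FUL2-TM3, and it was 2.70, 3.04 and 2.78 in the MC-J, MC-J2 and MC-TM3 lists. Where the local background was higher, lower folds were called, down to 1.56 in the MC-J peaks of these regions, so that no single fold bounds the FUL2 signal that left no peak.

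Within a region the partners ranked alike only in part. In the 245 regions of MC-J and MC-TM3, the MC-TM3 peak had the higher percentile in 134 (54.7%, 48.4 to 60.8), with a median difference of 5.28 percentile points (-1.04 to 7.88). Spearman's rank correlation of both percentiles over these regions was 0.25 by −log10 q and 0.41 by fold. In the 201 regions of MC-J2 and MC-TM3, the MC-TM3 peak stood higher in 154 (76.6%, 70.3 to 81.9), by a median of 14.6 points (12.1 to 19.3), with correlations of 0.37 and 0.53. The same pair beside FUL2 had the MC-TM3 peak higher in 62.9% (60.1 to 65.6) of 1178 regions, by 9.14 points (6.42 to 11.6). The MC-J2 list is the shorter of the pair (4677 against 11457 peaks), so that these differences do not order both complexes by binding strength.

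For MC-J with MC-J2, the MC-J2 peak stood higher in 13 of 30 regions, with a median difference of -3.13 points (-12.0 to 8.56), so that neither partner ranked above the other beyond the interval. In 8 regions of MC-J with MC-TM3 and in 7 of MC-J2 with MC-TM3, one peak was in the strongest and the other in the weakest 25% of its list. Both peaks were in the strongest 25% in 7 and 3 regions of these pairs, and both were in the weakest 25% in 41 and 26. The correlations are over regions of the same DNA and the same local sequence coverage, and regions are not replicates.

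**Figure D3:**
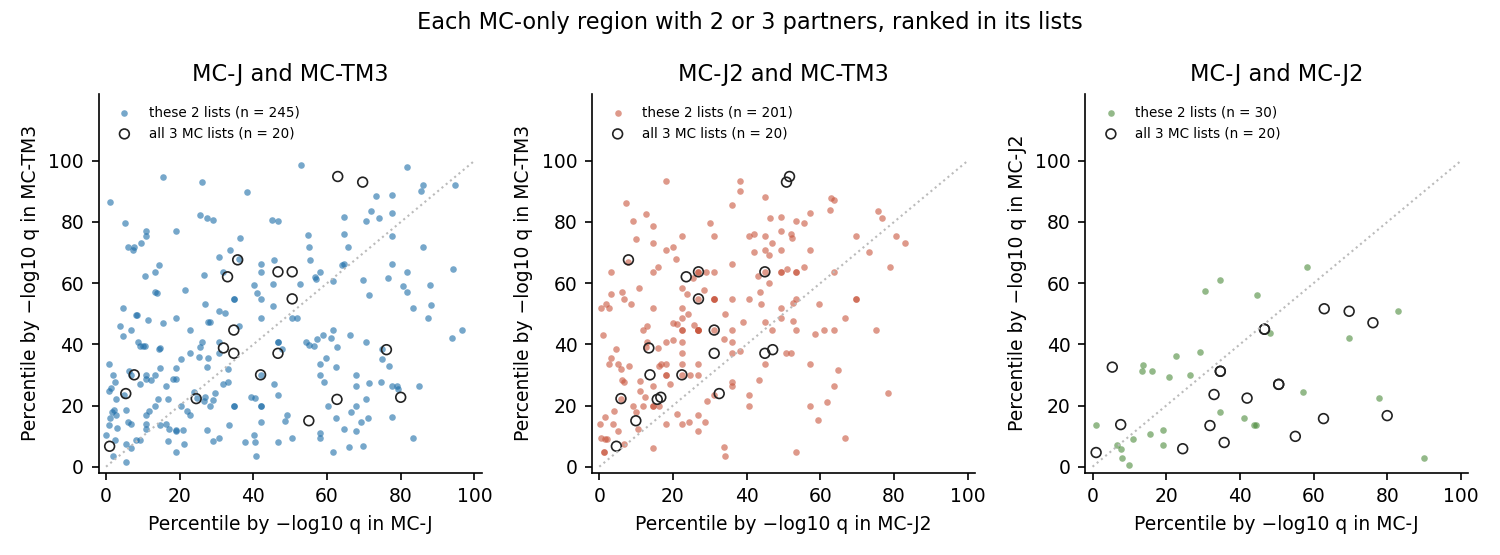
Each region plotted by the percentile (by −log10 q) of its peaks in 2 MC lists, 1 panel per pair; filled points have peaks of just these 2 MC lists, open circles of all 3, and the dotted line marks equal percentiles. In the middle panel 154 of 201 filled points lie above the line, and in the left panel 134 of 245.

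The strongest region of a pair lay on chromosome 12, at chr12:17267213-17267590 of the Moneyberg genome. There MC-J was enriched 5.91-fold with 133 reads under the summit (percentile 94.6 by −log10 q) and MC-TM3 6.17-fold with 105 reads (percentile 92.0), and both summits were 3 bp apart. It was the only region whose peaks were all in the strongest 10% of their lists, and the nearest FUL2 peak was 6.74 kb away. Next among the regions of this pair were chr12:9306679-9307036, with percentiles of 86.0 in MC-J and 92.2 in MC-TM3, and chr4:2932300-2932670, with 85.6 and 90.1.

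The regions of MC-J2 and MC-TM3 reached less far up. In chr4:24888496-24888804 the peaks were at percentiles 76.8 in MC-J2 (5.26-fold) and 81.4 in MC-TM3 (5.40-fold), with a FUL2 peak 1.12 kb away. In chr5:26100915-26101241 they were at 75.7 and 83.7, and in chr2:20141909-20142209 at 80.5 and 75.3. For MC-J with MC-J2 the leading regions were chr10:29926349-29926678 (58.1 in MC-J and 65.2 in MC-J2), chr12:48846977-48847297 (83.0 and 51.0) and chr5:16503424-16503757 (44.7 and 56.2), so that none of these had both peaks in the strongest 25%.

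The 20 regions that all 3 MC complexes bound differed in rank from list to list. Their median percentiles were 44.3 (33.0 to 55.0) in MC-J, 25.3 (13.8 to 32.5) in MC-J2 and 37.7 (23.9 to 62.1) in MC-TM3, and these wide intervals contained the medians of all 496 regions. In MC-J the pairs had lower medians, 33.7 (28.2 to 41.0) with MC-TM3 and 27.8 (16.2 to 43.8) with MC-J2. By fold the triple regions had 58.6 (41.6 to 66.8) in MC-J, against 39.8 (33.9 to 47.8) and 37.4 (25.8 to 55.3). The intervals of both pairs overlapped those of the triple regions by either measure. The lowest of the 3 percentiles was that of MC-J2 in 15 regions, and the highest that of MC-TM3 in 12, of MC-J in 7 and of MC-J2 in 1. Every peak lay above the middle of its list in 2 regions and below it in 9.

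Both of those upper regions had a strong MC-TM3 peak. At chr7:50712517-50712850 the folds were 3.99 in MC-J, 3.82 in MC-J2 and 5.34 in MC-TM3, at percentiles of 69.7, 50.8 and 93.0. At chr1:30159083-30159437 they were 4.25, 4.20 and 6.17, at percentiles of 62.9, 51.6 and 94.9. The summits of the 3 lists were within 24 and 25 bp of each other, and FUL2 peaks lay 7.56 and 5.73 kb away. Next by mean percentile were chr10:19954716-19955012, led by MC-J (76.1, against 47.1 in MC-J2 and 38.3 in MC-TM3), and chr6:5436741-5437091 (46.7, 44.9 and 63.7), where the 3 summits lay within 4 bp.

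In most regions the summits of the partners lay close together, which the rule partly set, since it joined peaks that overlapped. In the regions of MC-J2 and MC-TM3 the summits were a median of 19 bp apart (16 to 21), as beside FUL2 (19 bp), and 194 of 201 lay within 100 bp. For MC-J and MC-TM3 the median was 32 bp (27 to 37), against 27 bp (25 to 29) beside FUL2, and 80.0% (74.5 to 84.5) lay within 100 bp, against 85.1% (83.2 to 86.8). In 14 of the 245 MC-only regions of MC-J and MC-TM3 the summits were over 200 bp apart, at most 589 bp. For MC-J and MC-J2 the median was 39 bp (17 to 51), against 19 bp (15 to 23), in 30 regions. The 3 summits of a triple region spanned a median of 24.5 bp, and 18 of 20 were within 100 bp. The distances of the MC-only regions were therefore those of shared regions for J2 with TM3, and somewhat longer, with overlapping intervals, where J was one of the pair.

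**Figure D4:**
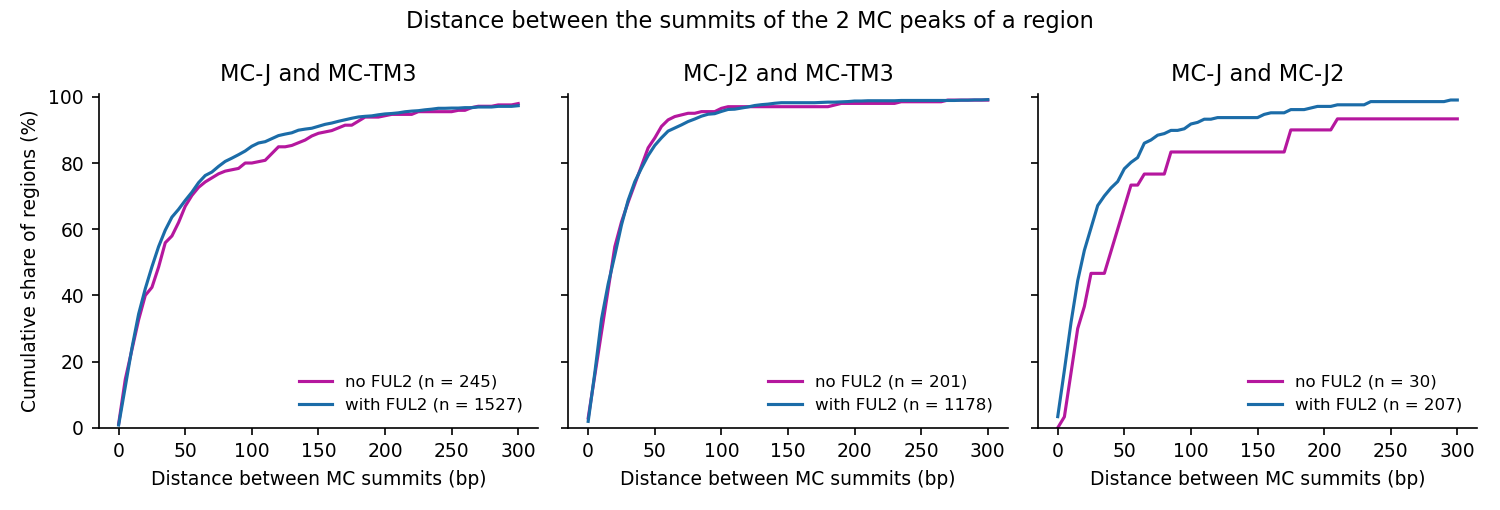
Cumulative share (%) of regions against the distance (bp) between the summits of their 2 MC peaks, 1 panel per pair, for regions without and with FUL2. The curves run close together for MC-J2 with MC-TM3 (medians of 19 bp in both) and the medians of regions without FUL2 are larger for the pairs with MC-J (32 against 27 bp and 39 against 19 bp).

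The regions were little wider than the peaks they joined, whose median widths were 312 bp in MC-J, 276 bp in MC-J2 and 307 bp in MC-TM3. They had a median width of 342 bp (269 to 854) and covered 184 kb in all, with 476 made of 2 peaks and 20 of 3. At the edge of the rule, the smallest overlap that joined 2 MC peaks was 1 bp, on chromosome 5, between a MC-J peak at chr5:57523772-57524113 (2.78-fold) and a MC-TM3 peak at chr5:57524113-57524413 (3.67-fold). Among regions of 1 MC list alone, the closest peaks of 2 different MC lists that stayed apart were 36 bp from each other. They were MC-TM3 at chr1:49369532-49369820 (3.78-fold) and MC-J at chr1:49369857-49370136 (3.51-fold). The lowest −log10 q among the regions was 4.27 in MC-J, 5.19 in MC-J2 and 5.76 in MC-TM3. On the FUL2 side, 58 of the 5047 shared regions were kept out solely by FUL2 peaks in the weakest 5% of their lists, and 130 by peaks in the weakest 10%.

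Along the genome the regions were spread over all chromosomes. Placed on the 12 chromosomes were 491, from 28 on chromosome 6 to 56 on chromosome 9, which came to between 0.506 (chromosome 11) and 0.695 (chromosome 2) per Mb. Another 5 lay on unplaced sequence (chromosome 0 of the build). Of the regions with 2 or 3 MC lists, the share without FUL2 was between 7.95% (chromosome 11) and 9.58% (chromosome 4) on the 12 chromosomes, with intervals that all overlapped. The triple regions were unevenly divided in number, with 5 each on chromosomes 1 and 7, 4 on chromosome 4 and none on chromosomes 2, 8, 9 and 12, but 20 regions are too few to rank chromosomes.

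The chromosome ends held few of them. Within 5 Mb of an end, where an even spread over the length would put 14.6%, lay 43 of the 491 placed regions (8.76%, 6.57 to 11.6). It was 10.8% (10.1 to 11.5) for regions of 1 MC list and 10.4% (9.56 to 11.3) for regions with FUL2, and 26.6% of all regions of the series. In the last 1 Mb were 7 regions (1.43%, 0.692 to 2.91), against 19.7% of all regions. Between 5 and 10 Mb from an end were 13.4% (10.7 to 16.7), against 9.90% (9.10 to 10.8) of regions with FUL2, and more than 20 Mb away were 48.9% (44.5 to 53.3), against 52.9%. The MC-only regions thus shared the interior position of the other MC regions, and their share near the ends differed from those of both classes by less than its interval.

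**Figure D5:**
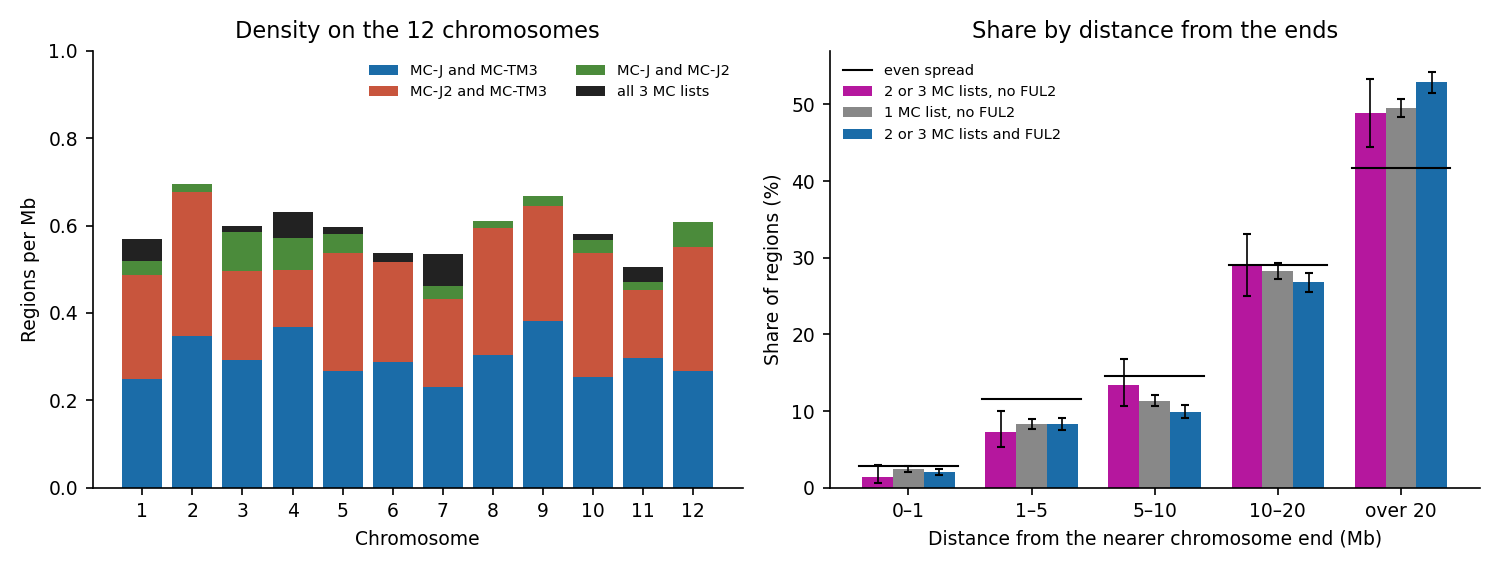
Left, regions per Mb on each of the 12 chromosomes, stacked by combination of MC lists (0.506 to 0.695 in all). Right, share (%) of placed regions by distance (Mb) from the nearer chromosome end for 3 classes of region with 95% Wilson intervals, beside black lines for an even spread over the chromosomes; the share within 1 Mb of an end is 1.43% for the MC-only regions with 2 or 3 partners.

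FUL2 peaks lay near these regions about as often as near other MC-only sites, within the intervals. The nearest FUL2 peak lay a median of 15.8 kb away (13.5 to 18.3), against 16.7 kb (16.0 to 17.4) for regions of 1 MC list. A FUL2 peak within 1 kb was found at 20 regions (4.03%, 2.63 to 6.15), against 4.63% (4.17 to 5.14), and within 10 kb at 186 (37.5%, 33.4 to 41.8), against 35.7%. The nearest peak of those 20 belonged to FUL2-J in 11, to FUL2-TM3 in 5 and to FUL2-J2 in 4.

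The region closest to FUL2 lay at the start of chromosome 11, at chr11:14810-15331, bound by MC-J2 and MC-TM3, with a FUL2-TM3 peak (3.49-fold, percentile 32.8) starting 41 bp further on. The next were chr11:32851439-32851727 and chr9:30125175-30125495, both of MC-J2 and MC-TM3 and 229 and 232 bp from FUL2-J peaks of low rank (percentiles 2.10 and 10.9), and chr12:53714437-53714935, of MC-J and MC-TM3, 285 bp from a FUL2-J peak at percentile 70.0. At the other side of the rule, no shared region was kept out by an overlap of less than 155 bp.

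The regions rarely lay near each other. The nearest other one was a median of 500 kb away, and 4 pairs were within 10 kb of each other. Both regions of each pair had the same combination, MC-J with MC-TM3 on chromosomes 2, 4 and 6 and MC-J2 with MC-TM3 on chromosome 7. These combinations made up 49.4% and 40.5% of all the regions, and 4 pairs are too few to read an association. The spacing was not set against that of an even spread. The closest pair, chr7:64371366-64371658 and chr7:64371927-64372247, was 0.268 kb apart.

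Gene positions were used for chromosome 0, chromosome 1 and chromosome 2 up to 24.6 Mb, from the study's annotation of peaks, which gave 866 genes and not every gene of these sequences. Of the 80 regions there (55 on chromosome 1, 20 on chromosome 2 and 5 on chromosome 0), 8 lay inside the span of a listed gene and 15 inside or within 5 kb of one, so that the others had no listed gene close by. Exons and introns were not given, and no gene description came with these IDs.

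Of the 8 regions inside a gene span, the first 6 in genome order are named, all on chromosome 1. Of these, 5 carried MC-J2 with MC-TM3, a pair that made up 23 of the 55 regions on chromosome 1. The remaining ones, on chromosome 2, carried MC-J with MC-TM3 and MC-J2 with MC-TM3. So few regions show no preference of a pair for genes. In Solyc01g020520 the region chr1:34666418-34666686 had percentiles of 34.2 in MC-J2 and 50.05 in MC-TM3. In Solyc01g161740 the region chr1:36972408-36972740 had 64.7 and 31.6, and in Solyc01g060090 the region chr1:68110681-68111047 had 9.17 and 80.3. These were opposite orders of the same partners, while in Solyc01g056720 (chr1:54869434-54869765) both peaks ranked alike, at 49.2 and 48.6, as in Solyc01g057003 (chr1:56483443-56483784), at 36.1 and 37.1. The sixth, in Solyc01g104490 (chr1:90794202-90794617), was a region of MC-J and MC-TM3, at 26.9 and 53.2. Closest upstream of a listed gene, and named after its values were seen, was chr1:44610978-44611344, 242 bp before the start of Solyc01g044520, with MC-J at percentile 87.3 (5.57-fold) and MC-TM3 at 48.6 (4.44-fold).

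A small number of regions differed from the rest in their background. Where it could be solved, the local background was more than 3 times the commonest one of the list at 8 regions, in 3 of 252 MC-J peaks, 4 of 247 MC-J2 peaks and 6 of 440 MC-TM3 peaks. All 5 regions on unplaced sequence were among them, with folds of 1.56 to 2.25 on 235 to 417 reads and backgrounds 7.39 to 13.4 times the commonest. Their low folds went with ranks by −log10 q of up to 65.4, as in a MC-TM3 peak at chr0:4429701-4430021 that was at percentile 2.24 by fold.

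Of these 5, 4 formed 2 pairs that lay near copies of one gene ID. The regions chr0:4429701-4430021 and chr0:8201385-8201687, both of MC-J2 and MC-TM3, were 3567 and 3555 bp upstream of copies of Solyc11g063570 on opposite strands. The regions chr0:4455072-4455517 and chr0:4958531-4959090, both of MC-J and MC-TM3, were 2789 and 2728 bp upstream of copies of Solyc00g019980, also on opposite strands. Reads from such copies can be placed on either, so that these 4 regions may not be separate sites, which was not tested. Of the 5543 regions with 2 or 3 MC lists, 31 lay on unplaced sequence, and 5 of these (16.1%, 7.09 to 32.6) had no FUL2 peak.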

How the data were processed

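Per the methods, reads were trimmed with Trim Galore, mapped to the Moneyberg genome with HISAT2 and peaks called with MACS2 at a p-value threshold, on alignments merged per complex. Across the 6 lists, however, the lowest −log10 q was 4.01 to 4.22 and the lowest −log10 p was 6.00 to 6.65. The lists thus ended near a −log10 q of 4, as a cut on q would leave them. Versions, and how the input libraries entered the calling, are not given in the sources used here. The deposited lists hold for each peak a fold enrichment over local background (a ratio), and −log10 values of p and q, all computed by the authors' MACS2, with the summit's position. They hold no counts and no value per library, and although 3 libraries are labelled for the input and each complex, the peak names refer to 2 input alignments, and it is not known how many libraries each list rests on.

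Peaks of the 6 lists that overlapped by at least 1 bp were joined into regions with Python 3.11.15 (numpy 2.4.6, pandas 2.3.3, scipy 1.17.1), and their number was checked with bedtools 2.31.1. Where a list had several peaks in a region, the strongest was used. Shares have 95% Wilson intervals and medians binomial ones. Reads and backgrounds were solved from MACS2's formulas for the fold (pseudocount 1) and the Poisson p-value; 86.0% (MC-J), 98.5% (MC-J2) and 90.8% (MC-TM3) of peaks gave a single whole number of reads within 0.1. One read counted 0.595, 0.503 and 0.773 after scaling to the input, so the treatments were 1.68, 1.99 and 1.29 times as deep. On simulated data, 5031 regions and 373 of the MC-only kind were recovered as set, and all solved read numbers were right. The simulated folds and p-values came from the same formulas, so this checks the computation and cannot show that the formulas hold for the deposited peaks. Backgrounds as high as those on unplaced sequence were not simulated. A chromosome was measured up to the end of its last peak. Figures were drawn with matplotlib 3.10.9.

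The regions, comparisons and lists were chosen with earlier results of these data known. The peak calls chose the regions, peaks are not replicates and 1 list stands for each complex, so no test was made. Regions were named by rule, as the 4 of all 3 MC lists with the highest mean percentile, the 3 of each pair with the highest lower percentile, those at the thresholds, and up to 6 inside or within 5 kb of genes placed by the study's annotation. The other regions were named after their values were seen. Alternatives were other overlaps (50% of both peaks, summits within 100 bp, peaks up to 500 bp apart joined), stricter lists (−log10 q of at least 10, the 4000 strongest peaks, fold of at least 3), strength by fold, and leaving out unplaced sequence or the last 1 Mb of chromosomes.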

Additional observations from a re-analysis of the deposited data

How the results depend on the processing

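Over 13 alternatives, 82 of 111 recomputed values stayed within 1.5 times (counts) or inside the 95% interval (shares and medians) of the reported one. Of the alternatives, 3 leave out a FUL2 list each and were chosen after seeing the data; all percentiles kept the ranks of the whole lists. Stricter lists gave stronger regions by construction. A −log10 q of at least 10 gave a median percentile of 44.3 in MC-J, and applied to the MC lists alone 46.7 in MC-J, 31.9 in MC-J2 and 47.3 in MC-TM3, with 44.2% of regions in the MC-J and MC-TM3 pair and a median summit distance of 20 bp against 24 bp over all regions. With the 4000 strongest peaks of each list there were 193 regions in place of 496, 8 with all 3 MC lists, 24.9% with MC-J and MC-TM3, medians of 76.1, 40.8 and 77.7, a summit distance of 17 bp, and 1.55% with a FUL2 peak within 1 kb. This cut is unequal, since it removed most MC-J (10818) and MC-TM3 (11457) peaks but few MC-J2 (4677) peaks. A fold of at least 3 gave 41.0 in MC-J, and ranking by fold gave 32.5 in MC-J2. With summits within 100 bp required, the summit distance was 20 bp and 9.68% had a FUL2 peak within 1 kb, a share that here counts overlapping peaks too, and with peaks up to 500 bp apart joined it was 2.20%.

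Each FUL2 list moved the count of regions with all 3 MC lists. Without FUL2-J there were 1276 regions, 113 with all 3 MC lists, 61.2% with MC-J and MC-TM3 and a median of 46.7 in MC-J. Without FUL2-J2 there were 930, 65 with all 3, 28.7% with MC-J and MC-TM3 and a median of 36.1 in MC-J2. Without FUL2-TM3, 33 had all 3 and 55.6% were of MC-J and MC-TM3. The share near chromosome ends did not leave its interval under any of these settings. No paired analysis was possible because each complex had 1 list of merged libraries and no test was made. Differences between libraries, the FUL2 signal below the calling threshold, and binding in nuclei were not measured here.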

Other observations

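The regions with a high local background fell outside the unplaced sequence in 3 cases. At chr5:27636356-27636773 MC-J was 2.24-fold enriched (percentile 1.09 by fold and 26.0 by −log10 q) on 203 reads and MC-TM3 3.28-fold (17.6 and 93.1) on 227 reads, with backgrounds 4.75 and 4.78 times the commonest. At chr10:17628009-17628365 MC-J was 2.66-fold and MC-TM3 2.86-fold enriched, with a FUL2 peak 0.491 kb away. At chr11:46682766-46683109 MC-J2 was 2.06-fold and MC-TM3 2.34-fold enriched, with a MC-J2 background 7.03 times the commonest, close to the 7.51 of both regions near Solyc11g063570 on unplaced sequence. These 3 regions also lay at like distances from their nearest FUL2 peak, 3.07, 2.93 and 3.05 kb. Among regions of 1 MC list, such a background was found in 5.45% of solved MC-J peaks (4.72 to 6.28, n = 3285), 0 of 380 MC-J2 peaks, which allows up to 1.0%, and 0.994% of MC-TM3 peaks (0.684 to 1.44, n = 2715).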
